A study of Oryctolagus cuniculus with 3 samples.

Results

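Translation factors are the proteins that start, extend and end the reading of mRNA by the ribosome. Their genes were picked by symbol, as every eIF1 to eIF6, eEF1, eEF2, ETF1, GSPT or PABPC gene with a probe in the deposited value table, the kinases of eIF2 left out. There were 45 such genes, measured by 116 probes, among 6522 genes with a symbol. The symbol rule also takes in genes that act on translation factors or only share the name. These are EEF1AKMT1, EEF1AKMT2, EEF2K, EIF4EBP2 and EEF1E1, and they are counted among the 45. Each gene is given by its brightest probe. The samples were rabbit (Oryctolagus cuniculus) embryos collected at day 6, after recovery as morulae at day 3, cryopreservation and transfer to recipient does. The frozen group had been slow-frozen as morulae, by a protocol not stated in the labels, and the vitrified group had been cooled straight into a glass in a mixture of dimethyl sulphoxide and ethylene glycol. All embryos of both groups were therefore stored and transferred, and fresh embryos were not analysed here. Each of 3 arrays with 2 channels set RNA of frozen embryos against RNA of vitrified embryos, and the dyes were exchanged on replicate 2. The rabbit breed and how many embryos made up a sample are not stated in the labels.

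A translation cycle begins when eIF2 carries the initiator tRNA to the small ribosomal subunit, where eIF1 and eIF3 help it to find the start codon. The eIF4 proteins hold the capped end of the mRNA and unwind it, and eIF2B recharges eIF2 with GTP for the next round, the step that stress kinases block. eEF1A then delivers each aminoacyl-tRNA, eEF1B recharges eEF1A, and the release factors end the chain. In mammalian embryos protein synthesis is known to rise as the blastocyst forms.

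No translation factor passed the test between frozen and vitrified embryos. Most leaned slightly lower in frozen embryos, with a mean log2 ratio of frozen over vitrified below 0 in 38 of the 45 genes (84.4%). The 38 include EEF1AKMT1, EEF1AKMT2, EEF2K, EIF4EBP2 and EEF1E1, which are not translation factors themselves. Among all named genes 53.4% had a mean below 0. The median of the 45 means was -0.07, against -0.01 over all named genes, and the means ran from -0.29 for EIF1 to 0.21 for EIF3A. With limma's moderated test and Benjamini-Hochberg adjustment over 22839 probes, 0 of the 45 genes and 0 probes (0.0%) had an adjusted p under 0.05. The factor with the smallest p was EIF1, with an unadjusted p of 0.103 and an adjusted p of 0.99989 in limma. Without adjustment 0 factors had p under 0.05, against 4.20% of named genes (2.79% lower and 1.41% higher in frozen embryos) and 4.47% of all probes. No factor had a mean of 1.5-fold or more, a size that 2.24% of named genes reached.

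The lean below 0 was not seen on every array, though the share below 0 exceeded that of named genes on each, least so on replicate 2. On replicate 1 the median over the factors was -0.18 and 31 of 45 (68.9%) lay below 0, against -0.08 and 58.6% for named genes. On replicate 2, the dye swap, the median was 0.00 and 22 (48.9%) lay below 0, against 0.04 and 42.9% for named genes. On replicate 3 the median was -0.10 and 33 (73.3%) lay below 0, against 0.02 and 46.8% for named genes. Without replicate 1 the mean was below 0 in 25 of the 45 factors (55.6%), against 43.2% of named genes. Without replicate 2 it was below 0 in 35 factors (77.8%), against 56.9% of named genes, and without replicate 3 in 31 factors (68.9%), against 56.3%. The ratio of replicate 2 is likely, not stated, to run as frozen over vitrified, and with its sign turned 34 factors (75.6%) lay below 0, against 58.9% of named genes.

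**Figure D1:**
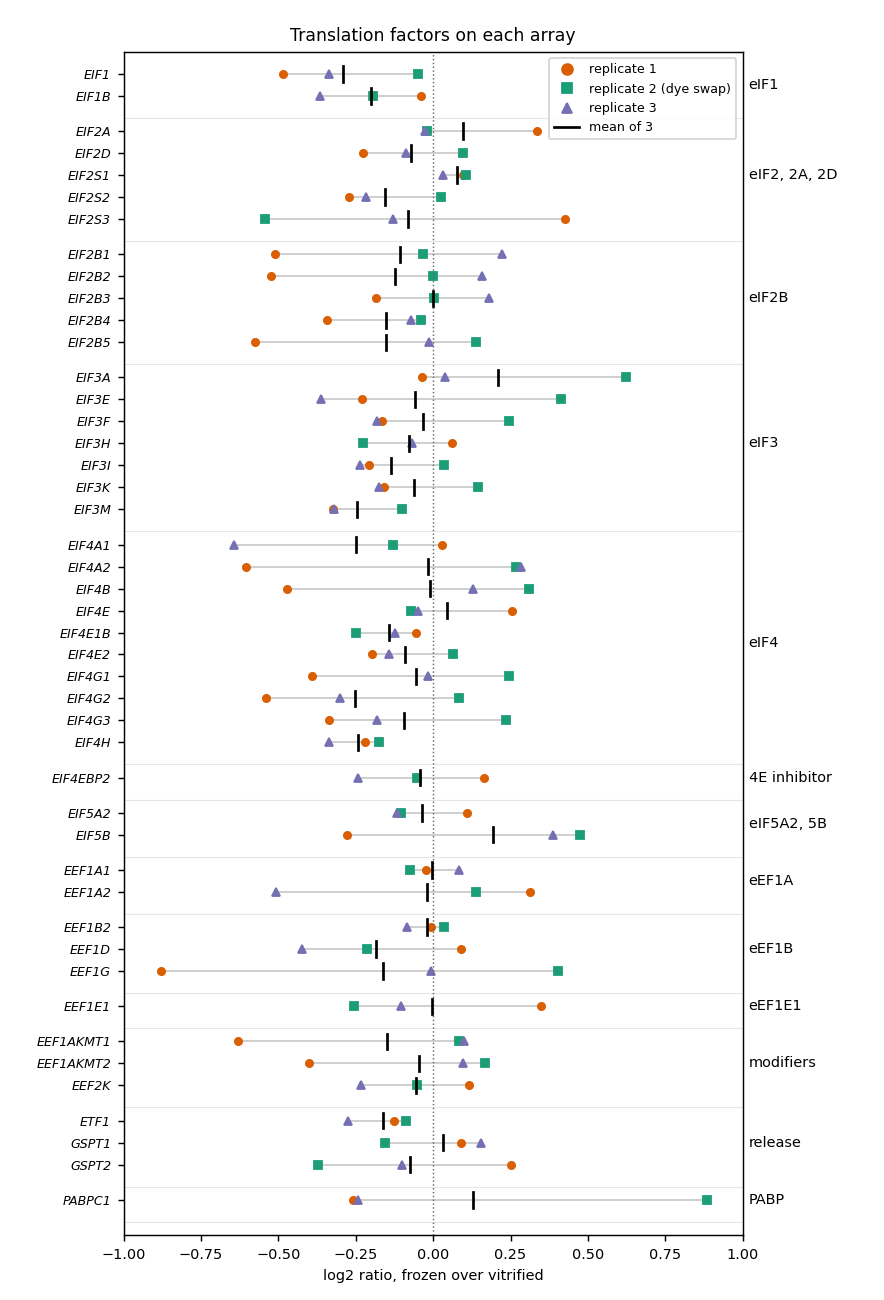
Log2 ratio of frozen over vitrified (x axis) for each of the 45 translation factors (rows, grouped by role) on replicates 1, 2 and 3, with the mean as a black bar. In 8 genes the 3 points lie on 1 side of 0, and EEF1G on replicate 1 and PABPC1 on replicate 2 are the points furthest from it, at -0.88 and 0.88.

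Arrays disagreed on the direction of many factors. Opposite signs on replicates 1 and 2 were seen for 33 of the 45 genes (73.3%), against 66.0% of named genes, and 21 of them (46.7% of the 45, against 40.8% of named genes) were below 0 on replicate 1 and above 0 on replicate 2. Replicates 2 and 3 shared a sign for 26 genes (57.8%), against 62.1%. Across the 45 genes Pearson's r was -0.49 between replicates 1 and 2, -0.29 between replicates 1 and 3 and 0.22 between replicates 2 and 3. Across all named genes it was -0.38, 0.01 and 0.48 for these pairs. These are descriptions across genes, which share their arrays and are not independent. A single sign on all 3 arrays was found for 8 factors (17.8%), against 22.4% of named genes. Of these, 7 lay below 0 (11.7% of named genes did) and 1 lay above (10.7%). This count is of the brightest probes, and 4 of the 8 genes have 1 probe. By the mean over all probes of a gene 7 factors had 1 sign: 5 of the 8 kept it, EIF1, EIF1B and ETF1 did not, and EIF4A1 and EIF4A2 were added.

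**Figure D2:**
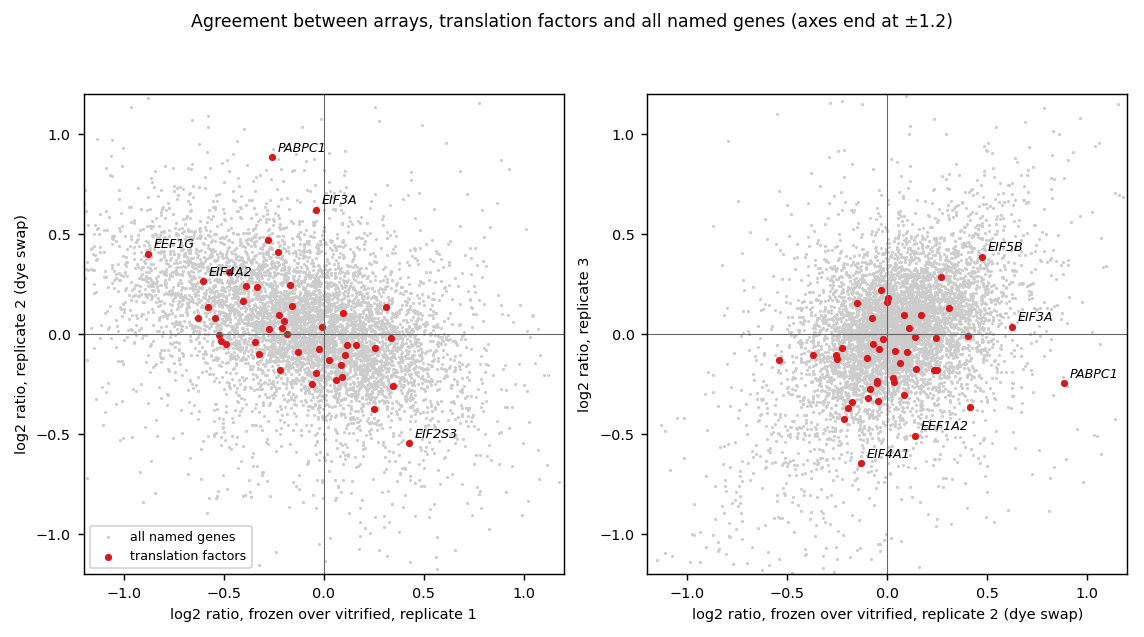
Log2 ratio of frozen over vitrified on replicate 2 against replicate 1 (left) and on replicate 3 against replicate 2 (right), for the 45 translation factors in red over 6522 named genes in grey; points beyond the axis limits are not drawn. The red points fall from upper left to lower right on the left (Pearson's r -0.49) and show a weak upward slope on the right (r 0.22).

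Other readings of the embryos also differed between arrays, and their part in the factors' values was not tested. Of the blood markers, 2 measured of 8 listed, the hemoglobin gene HBB2 had log2 ratios of 2.62, -3.77 and -3.59 on replicates 1, 2 and 3, and the myeloid gene S100A9 had 0.54, -0.15 and 0.25. The hypoblast markers, 8 measured of 10 listed, had medians of 0.02, -0.86 and -1.21, with 8 of 8 means below 0, against 53.4% of named genes. Their summed signal was 3354 in frozen and 2711 in vitrified embryos on replicate 1, and 3110 in frozen and 8419 in vitrified embryos on replicate 3. The trophoblast markers, 5 measured of 8, had medians of -0.31, 0.26 and 0.36. Their summed signal was 13611 in frozen and 21411 in vitrified embryos on replicate 1, and 20814 in frozen and 20828 in vitrified embryos on replicate 3. The epiblast markers, 4 measured of 6, had medians below 0 on each array, at -0.45, -0.21 and -0.30, but did not move together. POU5F1 had -0.75, -0.52 and -1.62 and ETV4 had -1.04, -0.06 and -0.63. LIN28A had -0.02, -0.36 and 0.03, and DPPA5 had -0.15, 0.13 and 0.42. The summed signal of the 4 epiblast markers was 8326 in frozen and 12307 in vitrified embryos on replicate 1, and 6751 in frozen and 12487 in vitrified embryos on replicate 3. POU5F1 weighed most in this sum, with a mean log2 signal of 12.6, against 11.5 for DPPA5, the next brightest. The embryo markers POU5F1 (epiblast), KRT8 and GATA3 (trophoblast) were well above background in both groups on replicates 1 and 3. The same held for all 22839 probes of the value table, so it sets no marker apart. NANOG, SOX2 and CDX2 were not analysed here. Of the uterine markers, 2 measured of 6, SCGB1A1 had -0.67, -0.62 and 0.13 and HOXA11 had -0.30, -0.01 and -1.0. In whole embryos, fewer cells of a type and less RNA per cell cannot be told apart.

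The probes behind the factors named most often below are printed here, as 60 bases of the transcript 5′ to 3′, because a ratio is only that of its probe. Coordinates are those in the array files, which do not name a genome build. EIF1 (chr19:42629017-42629076, plus strand), EIF3M (chr1:171995283-171995808, plus), EEF1G (chr14:45708696-45708755, plus) and PABPC1 (chr3:116334655-116335208, minus) are placed on the genome, and EIF4H has no position in the files. The spans of the EIF3M and PABPC1 probes are longer than 60 bases, so an intron lies within each. No bases are in capitals, since these probes share none.
EIF1: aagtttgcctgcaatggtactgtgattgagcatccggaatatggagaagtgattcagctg
EIF4H: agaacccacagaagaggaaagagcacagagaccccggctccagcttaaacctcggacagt
EIF3M: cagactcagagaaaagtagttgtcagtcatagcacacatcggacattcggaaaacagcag
EEF1G: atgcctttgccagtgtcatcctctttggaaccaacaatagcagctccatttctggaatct
PABPC1: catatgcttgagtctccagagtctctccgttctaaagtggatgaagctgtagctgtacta

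Both measured eIF1 genes lay below 0 on every array by their brightest probe, but not by all of their probes. EIF1, which keeps the scanning ribosome open until a start codon is met, had -0.49, -0.05 and -0.34 on replicates 1, 2 and 3. Its mean was -0.29 ± 0.22 (SD, n = 3), 1.22-fold lower in frozen than in vitrified embryos, with a 95% interval in limma of -0.66 to 0.08. The signals behind it were 38664 in frozen and 54155 in vitrified embryos on replicate 1, and 31276 in frozen and 39463 in vitrified embryos on replicate 3. Replicate 2 stood nearest 0, and each of the 5 probes of EIF1, which overlap, had a mean between -0.29 and -0.24. On replicate 2, however, 3 of these probes lay above 0, up to 0.07. EIF1B, a near copy with the same role, had -0.04, -0.20 and -0.37, with a mean of -0.20 ± 0.16 (SD, n = 3). Here replicate 1 stood nearest 0, where 4 of the 5 probes of EIF1B lay above it, up to 0.05, so the order of the arrays differed between these genes. Neither difference passed the test.

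The 3 subunits of eIF2 differed in sign and in spread, and none passed the test. EIF2S1, the alpha subunit that stress kinases phosphorylate, had 0.10, 0.11 and 0.03 and was the only factor above 0 on all 3 arrays, with a mean of 0.08 ± 0.04 (SD, n = 3; 95% interval in limma -0.24 to 0.40). EIF2S2, the beta subunit, had -0.27, 0.03 and -0.22. EIF2S3, the gamma subunit that holds GTP and the initiator tRNA, had 0.43, -0.54 and -0.13. Its arrays thus lay far apart, with an SD of 0.49 around a mean of -0.08. EIF2A and EIF2D, carriers of tRNA that can act in place of eIF2, had means of 0.10 and -0.07.

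All 5 subunits of eIF2B were measured, and replicate 1 held the low values. On that array 5 of 5 lay below 0, against 68.9% of the 45 factors and 58.6% of named genes. The subunits ran from -0.58 for EIF2B5 to -0.18 for EIF2B3, with a median of -0.51. On replicates 2 and 3 the medians were 0.00 and 0.16, with 3 and 2 of the 5 below 0, against 42.9% and 46.8% of named genes. EIF2B5, the catalytic subunit, had -0.58, 0.14 and -0.01 on the 3 arrays. EIF2B4, a regulatory subunit, had -0.34, -0.04 and -0.07 and was the subunit below 0 on all 3 arrays, with a mean of -0.15 ± 0.17 (SD, n = 3). EIF2B1, EIF2B2, EIF2B3 and EIF2B5 each changed sign between arrays, and the median of the 5 means was -0.12.

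The eIF3 complex, the scaffold that binds the small subunit and recruits the mRNA, had 7 measured members of 14 listed. Replicates 1 and 3 had 6 of 7 below 0 each, and replicate 2 had 2 of 7. Over all named genes 58.6%, 42.9% and 46.8% lay below 0 on replicates 1, 2 and 3. The medians were -0.17, 0.14 and -0.18 on replicates 1, 2 and 3. EIF3M, a subunit of its core, had -0.32, -0.10 and -0.32, with a mean of -0.25 ± 0.13 (SD, n = 3; 95% interval in limma -0.58 to 0.09). It was the eIF3 gene below 0 on all 3 arrays, and the means of its 3 probes ran from -0.25 to -0.13, though 1 of them lay above 0 on replicate 2, at 0.05. EIF3A, the largest subunit, had -0.04, 0.62 and 0.04, so its mean of 0.21, the highest of the 45, came from replicate 2. EIF3E, EIF3F and EIF3K, other subunits of the complex, lay below 0 on replicates 1 and 3 and above 0 on replicate 2. EIF3I did so by its brightest probe, while 4 of its 7 probes lay above 0 on replicate 3 and 2 lay below 0 on replicate 2. EIF3B, EIF3C, EIF3D, EIF3G, EIF3J and EIF3L were not analysed here.

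Of the eIF4 factors, which handle the capped end of the mRNA, 10 of 12 listed were measured, with a median of -0.09 and 9 of 10 means below 0. The share below 0 was 84.4% over the 45 factors and 53.4% over all named genes. EIF4H, a helper of the eIF4A helicase, had -0.22, -0.18 and -0.34, with the smallest SD of the 5 genes furthest below 0. Its mean was -0.24 ± 0.08 (SD, n = 3), 1.18-fold lower in frozen than in vitrified embryos, with a 95% interval in limma of -0.57 to 0.08 and an unadjusted p of 0.113. Its signals were 493.4 in frozen and 574.2 in vitrified embryos on replicate 1, and 452.8 in frozen and 572.3 in vitrified embryos on replicate 3. EIF4G2, a scaffold that works without the cap-binding protein, had -0.54, 0.08 and -0.30, and its 5 probes had means between -0.32 and -0.19. EIF4A1, the main helicase, had 0.03, -0.13 and -0.64, with a mean of -0.25. On that probe replicate 3 stood apart, while the probe furthest 5′ gave -0.36, -0.001 and -0.31. EIF4E, the cap-binding protein, had 0.25, -0.07 and -0.05, with a mean of 0.04. EIF4E1B, a relative of EIF4E known from oocytes, had -0.06, -0.25 and -0.12. It was dim, with signals between 36.5 and 41.5 on replicates 1 and 3, and lay above 0 (0.02) with the sign of replicate 2 turned. EIF4EBP2, which blocks EIF4E, had a mean of -0.04, and EIF4EBP1 was not analysed here.

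Probes of the same gene disagreed for EIF4A2 and EIF4G1. EIF4A2, a close relative of EIF4A1, is measured by 3 probes, printed with the bases that each probe shares with the next in capitals, because the brightest of them read apart from its neighbours. The probes lie on the minus strand at chr14:78842180-78842485 (probe a), chr14:78842140-78842199 (probe b) and chr14:78842100-78842159 (probe c), and probe a crosses an intron.
EIF4A2 a: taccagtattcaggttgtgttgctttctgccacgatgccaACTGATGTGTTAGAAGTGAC
EIF4A2 b: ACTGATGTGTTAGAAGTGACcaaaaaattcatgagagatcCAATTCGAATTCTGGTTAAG
EIF4A2 c: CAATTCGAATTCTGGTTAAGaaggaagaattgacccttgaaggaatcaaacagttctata
On replicate 1 probe a, which stands for the gene, gave -0.60, while probe b gave 0.38 and probe c 0.27. On replicate 2 probes a, b and c gave 0.27, 0.12 and 0.18, and on replicate 3 0.28, 0.05 and -0.06. The sign of EIF4A2 on replicate 1 thus depended on which of 3 neighbouring probes was read, and the mean over its probes was 0.10 where the brightest probe gave -0.02.

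EIF4G1, the scaffold that joins the cap-binding protein to eIF3, has a probe near the 3′ end and a block of 5 overlapping probes further 5′ in its transcript. An example of the block and the 3′ probe are printed to show how far apart they are read, at bases 2179 to 2238 and 4449 to 4508 of the transcript; no bases are in capitals.
EIF4G1 5′: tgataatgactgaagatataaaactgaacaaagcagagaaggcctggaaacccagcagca
EIF4G1 3′: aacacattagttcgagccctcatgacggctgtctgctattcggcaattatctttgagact
The 3′ probe, the brightest, gave -0.39, 0.24 and -0.02 on replicates 1, 2 and 3, and the 5′ probe gave -0.56, 0.35 and 0.56. On replicate 3 the probes therefore differed by 0.58 on the log2 scale. The mean over all probes of EIF4G1 was 0.09, against -0.05 for the 3′ probe. Where probes of a transcript lay 500 bases or more from each other (213 transcripts), the median of 3′ minus 5′ was 0.26, -0.13 and -0.06 on the 3 arrays. The part of this in the factors' values was not tested.

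**Figure D3:**
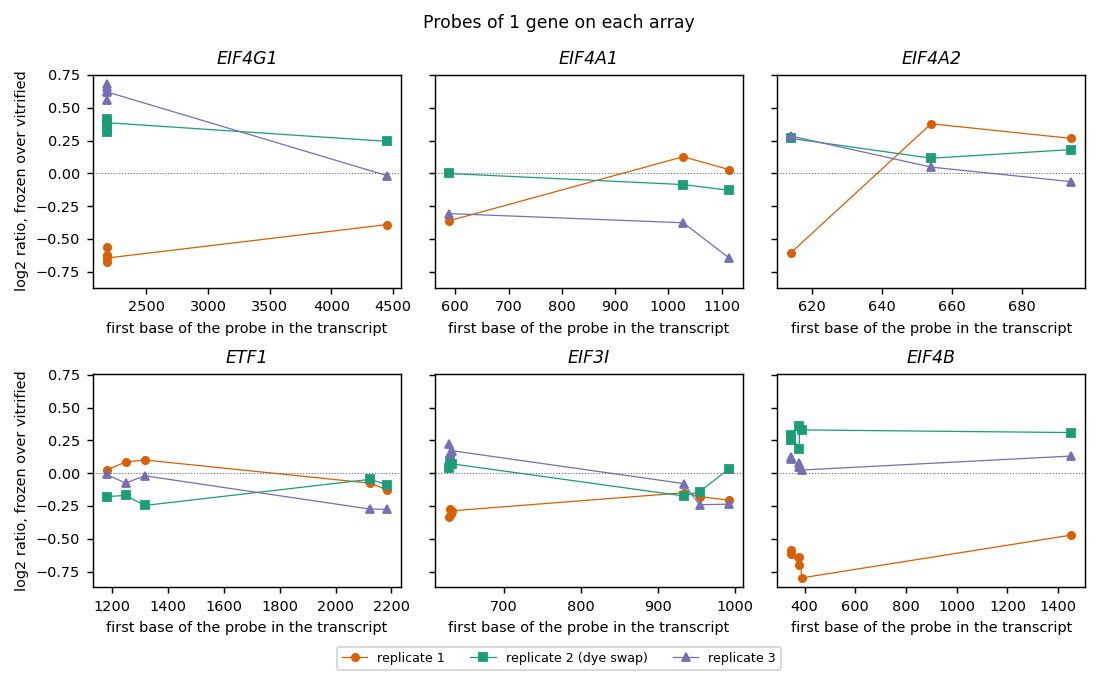
Log2 ratio of frozen over vitrified (y axis) for each probe of EIF4G1, EIF4A1, EIF4A2, ETF1, EIF3I and EIF4B against the first base of the probe in the transcript (x axis, bases), with a line for each array. In EIF4A2 replicate 1 runs from -0.60 at the first probe to 0.38 at the next. In EIF4B replicate 1 stays below 0 at every probe, while replicates 2 and 3 stay above 0.

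Of the 22 factors with several probes, 16 had all probe means on 1 side of 0. Only 13 factors have probes at 2 or more non-overlapping places, and overlapping probes are not separate readings of a gene. The same share over all named genes was not counted. EIF4B, which stimulates the helicase, had all 6 probe means below 0, but only replicate 1 held values below 0. Its probes ran from -0.80 to -0.47 on replicate 1, 0.18 to 0.36 on replicate 2 and 0.02 to 0.13 on replicate 3. The mean of its brightest probe was -0.01. The other 23 factors rest on 1 probe.

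The late initiation factors EIF5B, which joins the ribosomal subunits, and EIF5A2, an elongation and termination factor that carries hypusine, were measured. EIF5B had -0.28, 0.47 and 0.39, above 0 on replicates 2 and 3, with a mean of 0.19 ± 0.41 (SD, n = 3), and the array text calls its probe embryonic development protein-like. EIF5A2 had a mean of -0.04 by its brightest probe, while the other 4 of its 5 probes had means above 0, up to 0.18. EIF5, EIF5A and EIF6 were not analysed here.

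The elongation factors lay near 0 or varied widely. EEF1A1, the form of eEF1A found in most cells, had -0.02, -0.08 and 0.08, with a mean of -0.01 ± 0.08 (SD, n = 3) and a 95% interval in limma of -0.33 to 0.32. Its probe lists 3 transcripts in the array files, so near-identical copies could add to its signal. EEF1A2, the form known from muscle and neurons, had 0.31, 0.14 and -0.51, so its arrays spread on both sides of 0. EEF2, which moves the ribosome along the mRNA, was not analysed here.

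The eEF1B exchange complex had 3 measured subunits, each below 0 on replicate 3 by its brightest probe, against 46.8% of named genes. EEF1B2, a catalytic subunit, had -0.01, 0.04 and -0.09 and was among the steadiest factors, with an SD of 0.06, and 2 of its 5 probes lay above 0 on replicate 3. EEF1D, the other catalytic subunit, had 0.09, -0.22 and -0.42, with a mean of -0.18 ± 0.26 (SD, n = 3). EEF1G, the structural subunit, had -0.88, 0.40 and -0.01, with signals of 45985 in frozen and 84574 in vitrified embryos on replicate 1, and 58705 in frozen and 58997 in vitrified embryos on replicate 3. Its distance from 0 was thus that of replicate 1, and the mean was -0.16 ± 0.66 (SD, n = 3). EEF1E1, which shares the name but belongs to the complex of tRNA synthetases, had a mean of -0.004. EEF2K, the kinase that slows elongation by acting on eEF2, had 0.12, -0.05 and -0.23. EEF1AKMT1, a methyltransferase of eEF1A, had -0.63, 0.08 and 0.10.

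The release factor ETF1, which recognises stop codons, lay below 0 on every array by its brightest probe. It had -0.13, -0.09 and -0.28, with a mean of -0.16 ± 0.10 (SD, n = 3), and the means of its 5 probes ran from -0.16 to -0.05. Its 3 probes furthest 5′ lay above 0 on replicate 1, at 0.02, 0.08 and 0.10. GSPT1, the GTPase partner of ETF1, had 0.09, -0.15 and 0.16.

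PABPC1, the protein that coats the poly(A) tail and links it to eIF4G, had the largest SD of the 45. It had -0.26, 0.88 and -0.24, so that replicate 2 lay far above the others. Its mean was 0.13 ± 0.66 (SD, n = 3), and with the sign of replicate 2 turned it was -0.46. The array text describes this probe as the cytoplasmic 4 form of the protein, while its gene identifier belongs to PABPC1, so the probe may not tell these forms apart. PABPC4 itself was not analysed here.

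Regulators and partners that the symbol rule leaves out, 26 measured of 36 listed, lay on both sides of 0, with 17 means above and 9 below. Over all named genes 53.4% of means lay below 0. The median of the regulators was 0.03, with 0 past the test in either direction. MCTS1, a factor that helps ribosomes to be reused, had 0.29, 0.23 and 0.25, with a mean of 0.25 ± 0.03 (SD, n = 3) and an unadjusted p of 0.0959 in limma. PAIP1, a partner of PABPC1, had 0.08, 0.10 and 0.27, and NCBP1, a nuclear cap-binding protein, had 0.10, 0.26 and 0.03. These 3 of 26 were the regulators of 1 sign on all 3 arrays. Among all named genes 10.7% lay above 0 and 11.7% below 0 on all 3 arrays. The mitochondrial translation factors, 5 measured of 10, had medians of -0.24, 0.29 and 0.06 on replicates 1, 2 and 3, with 0 past the test.

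**Figure D4:**
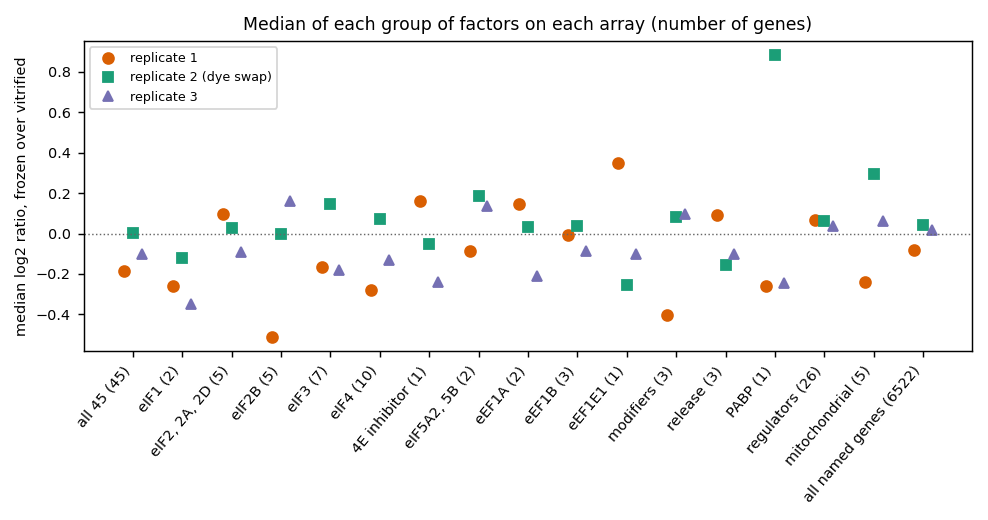
Median log2 ratio of frozen over vitrified (y axis) on each array for the 45 translation factors, for each group by role, for regulators, for mitochondrial factors and for all named genes (x axis, number of genes in brackets). The eIF2B median is -0.51 on replicate 1 and lies at 0.00 and 0.16 on replicates 2 and 3.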

How the data were processed

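RNA of day 6 embryos was labelled and hybridised to Agilent rabbit arrays, 1 frozen and 1 vitrified sample per array. Per the file headers, images were read with Agilent Feature Extraction (version 10.10.1.1 per the submitters' processing notes), and the scanner files of replicates 1 and 3 hold raw and processed spot intensities and, for each spot, the log10 of red over green. The processed intensity was background-subtracted and dye-normalized by the authors' scanner software. The value table that the authors deposited holds log2 ratios of all 3 arrays, whose scale, centring and direction are not stated. On replicates 1 and 3 it equalled log2 of processed red over green within 3e-06, that is frozen over vitrified. For replicate 2 the direction was taken from 10 spike-in probes, whose r was 0.99 for replicates 1 and 3 and -1.00 for replicate 2 with either of them, so that column was read as already turned. Over all probes the arrays correlated at -0.36 (replicates 1 and 2), -0.01 (1 and 3) and 0.48 (2 and 3). The column medians were -0.015, 0.021 and 0.017.

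All 22839 non-control probes of the table, of 43603 on the array, passed the scanner's flag for signal well above background in each channel of both files, and 0 were saturated. Of them 13965 were named through the RefSeq table of the rabbit (assembly mOryCun1.1) by accession, gene identifier, symbol or synonym, or by the symbol of the array design. It holds 0 columns of other samples. Ratios were tested against 0 with limma 3.58.1 (lmFit, eBayes; 2-sided) in R 4.3.3, with Benjamini-Hochberg adjustment over all 22839 probes and a threshold of 0.05; tables were joined with pandas 2.3.3 in Python 3.11.15. The test was also run on simulated arrays, drawn independently with a smaller spread than that of the probes and larger differences than any factor showed. That run cannot show the power of the test on these data. Per the labels the 3 arrays are biological replicates, so p-values measure the spread between these arrays, whose number limits the precision.

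The members, the lists by role and the tests were chosen with earlier results of these data known. Genes are named with values where they had 1 sign on all arrays (up to 8 per direction), the 8 smallest p or the 6 largest SDs, or were among 22 fixed members, 16 of them measured. Added to these are up to 3 regulators per direction and the markers. HBB2, S100A9, HOXA11, ETV4, LIN28A, DPPA5 and members given in passing were named after their values were seen. Alternatives turned the sign of replicate 2, left out arrays or dim probes, changed centring, variance model, dye term or probe choice, or started from the scanner files, with a normexp offset of 50 in the loess setting.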

Additional observations from a re-analysis of the deposited data

How the results depend on the processing

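The count of factors past the adjusted threshold was 0 in limma under every alternative run. The count at an unadjusted p under 0.05, 0 as reported, was 2 with the sign of replicate 2 turned (EIF3E and PABPC1; 4.66% of all probes) and 5 with normexp and loess on the scanner files (EEF1A1, EIF1, EIF3E, EIF3M and EIF4G2; 4.05% of probes), and 0 to 3 when 1 array was left out. The 3 came without replicate 1 (EEF1D, EIF4A1 and EIF5B), where 16.3% of probes had such a p and 796 probes, 243 higher and 553 lower in frozen embryos, passed the adjusted threshold; without replicate 2 or 3 that number was 0. The cause was not tested. Factors of 1 sign on all arrays numbered 15 with the sign of replicate 2 turned (26.3% of named genes) and 7 with the mean over all probes, where EIF1, EIF1B and ETF1 lost it and EIF4A1 and EIF4A2 gained it, against 8; this count was not run where fewer than 3 arrays remained. The median over the factors was -0.0722 as reported, and -0.167 to -0.0248 with 1 array left out, where 25 to 35 factors lay below 0. From the processed signals of the scanner files it was -0.167. Those files cover replicates 1 and 3, so this setting repeats the ratios without replicate 2. The loess setting also rests on these arrays, without the dye swap. Below 0 lay 38 factors as reported, 31 with the dye as a covariate, 35 with the mean over probes and 33 with loess.

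The direction of several named factors turned. With the sign of replicate 2 turned EEF1A1 had 0.0449, EIF2S3 0.28, EIF3A -0.207, EIF4E1B 0.023 and PABPC1 -0.462. With the dye as a covariate EEF1A2 had 0.0206, EIF4A2 0.0532, EIF4G1 0.0201 and GSPT1 -0.0158. The mean over all probes gave EIF4A2 0.0969 and EIF4G1 0.0916. Processed signals of the scanner files, which repeat the setting without replicate 2, gave EEF1A1 0.0298, EIF2S3 0.149 and PABPC1 -0.251. Normexp with loess, on replicates 1 and 3, gave EEF1A1 0.308, EEF1B2 0.238, EEF1D 0.0762, EIF2S3 0.0417 and EIF3A -0.0696. With 1 array left out the means ran from -0.0493 to 0.0298 for EEF1A1, -0.184 to 0.225 for EEF1A2, -0.274 to 0.0906 for EEF1AKMT1, -0.0457 to 0.015 for EEF1B2, -0.443 to 0.198 for EEF1G, -0.142 to 0.0326 for EEF2K, -0.296 to 0.062 for EIF2B5, -0.337 to 0.149 for EIF2S3, -0.169 to 0.275 for EIF4A2, -0.0605 to 0.102 for EIF4E, -0.204 to 0.113 for EIF4G1, -0.0325 to 0.123 for GSPT1 and -0.251 to 0.32 for PABPC1. EIF1, EIF4H and EIF3M stayed below 0 under every alternative run, as did EIF1B, EIF2B4, EIF2S2, EIF4A1, EIF4G2 and ETF1. EIF2S1 stayed above 0 under each of them. All of these but EIF2S2, EIF4A1 and EIF4G2 had 1 sign on all 3 arrays, a rule by which genes were named. For those genes, leaving out an array, adding the dye as a covariate or using the processed signals could not turn the mean. Median centring turned 0 of the named factors. The intensity trend with a robust prior and the filter on dim probes leave each mean unchanged, so they could not turn any. Beyond the pairing within each array that every ratio and its test already carry, no paired analysis was possible because the ratios form a single group, in which a replicate block would coincide with the array.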
